A study of Mus musculus with 21 samples.

Results

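The genes described are 34 genes of amino acid supply in mouse CD8 T cells, out of 17516 gene symbols measured. They were taken by name and comprise 7 amino acid transporters, 5 enzymes of one-carbon metabolism, 6 enzymes of serine, asparagine and proline synthesis, 5 genes of the ATF4 stress response and 11 cytosolic tRNA synthetases. All 34 were present in every table, and 32 reached 20 CPM, a UMI count scaled to the depth of its library, in at least 1 library. The exceptions were the cystine carrier gene Slc7a11 and the glutathione-degrading enzyme gene Chac1, which stayed below that level in every library.

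ATF4 is a transcription factor whose translation increases when kinases such as GCN2 and PERK phosphorylate the initiation factor eIF2, and mTORC1 signalling can raise it too. It binds composite C/EBP-ATF sites near genes that import amino acids, build serine and asparagine, and charge tRNAs. Activated T cells import leucine through the SLC7A5 and SLC3A2 heterodimer, and they use serine to feed the folate cycle, which supplies carbon units for purines and thymidylate. IL-2 and IL-15 signal through the same IL-2Rβ and common γ chains and differ in their α chain.

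RNA was measured in single cells of the OT1 line, T cells with 1 transgenic receptor for an ovalbumin peptide. The naive library was taken on day 0. Every other library came after stimulation with anti-CD3/CD28 beads. Libraries without cytokine were sampled on days 3 and 5. Cells given IL-2, IL-15 or IL-2v, which the labels call a mutant IL-2 (IL-2bg), were sampled on days 3, 5 and 10 at 5 and at 50 IU/mL. The bead stimulus was shared by 20 of the 21 libraries. Each of the 21 conditions is a single library without replicates. No p-values were therefore computed, and the intervals given cover counting error only. The labels state neither the age nor the number of the animals. The cytokine in the treatment label of 6 libraries conflicted with the title (interleukin-3 for IL-2 and interleukin-16 for IL-15, each at 50 IU/mL), and the titles were followed.

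After filtering, 3250 to 7105 cells and 10589950 to 32648496 UMIs (tags that mark single captured RNA molecules) remained per library, with a median depth of 3016 to 5065 UMIs per cell. The cells carried T cell markers, at 2238 to 5519 summed CPM for 6 genes. The 4 B cell genes summed to 1.54 to 17.8 CPM, the 3 CD4 T cell genes to 0 to 13.1, the 2 NK cell genes to 0 to 36.7 and the 3 erythroid genes found to 0 to 3.15. The 5 myeloid genes summed to 62.6 to 128.5 CPM, with Lyz2 and Csf1r at 0 in the 20 activated libraries. Of 106456 cells, 1434 barcodes occurred in more than 1 library, at most 19 in any pair of libraries. Cells with a UMI of the proliferation genes Mki67 or Top2a made up 3.01% of the naive library and 5.21% to 86.9% of the others. They are called cycling cells, and the rest non-cycling cells. The second name means only that no such UMI was seen, and at this depth cycling cells can be among them. Cells with a UMI of the heat shock gene Hspa1a made up 6.68% and 10.9% of the libraries with 50 IU/mL IL-2 on days 3 and 5, and at most 0.511% elsewhere. The part of these cell states in the levels of summed UMIs was not tested, except where a value within a state is given below. Because UMIs were summed over cells, a larger share of cells in a state and more RNA per cell cannot be told apart from the sums alone.

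Promoter sequence was examined first, since ATF4 acts through a short DNA site. RefSeq promoters of 300 bases (GRCm38.p6) were matched for 27 of the 34 genes. The letters TGATGNAA, searched on both strands as the C/EBP-ATF response element, occurred in 10 of the 27 genes (37.0%), against 4.51% of all 27025 genes and 3.97% of all 32851 promoters of the same length. By role, the match was found in 5 of 7 tRNA synthetase genes, 2 of 5 stress genes, 2 of 6 synthesis genes, 1 of 4 transporter genes and 0 of 5 one-carbon genes. The palindrome CACGTG, an E-box bound by MYC family proteins, occurred in 4 of 27 genes (14.8%), against 8.09% of all genes. The windows below show matches that lie before the RefSeq start of 6 of these genes, read 5′ to 3′ on the strand of the gene. Capitals mark the match, which reads TGATGNAA on the gene's strand or its reverse complement on the other.
Slc7a11 (chr3:50443662-50443689, minus strand, match 66 bases before the start): ctcatgtggcTGATGCAAacctggagaa
Slc7a11 (chr3:50443643-50443670, minus strand, match 47 bases before the start): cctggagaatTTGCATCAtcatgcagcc
Asns (chr6:7693215-7693242, minus strand, match 23 bases before the start): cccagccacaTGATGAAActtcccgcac
Pycr1 (chr11:120643834-120643861, minus strand, match 103 bases before the start): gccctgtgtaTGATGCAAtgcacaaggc
Chac1 (chr2:119351039-119351066, plus strand, match 193 bases before the start): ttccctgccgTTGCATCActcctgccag
Gars (chr6:55037961-55037988, plus strand, match 30 bases before the start): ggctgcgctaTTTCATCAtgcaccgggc
Tars (chr15:11399659-11399686, minus strand, match 15 bases before the start): gccaggagtcccgTTGCATCAgctggtt
In Trib3, Iars and Yars the match lay after the start. Of the 10 genes with a match, 7 stood higher at 50 than at 5 IU/mL of IL-2 in the comparison by dose, against 4.29% of all genes. Asns, Trib3, Gars, Iars, Tars and Yars were among them. Slc7a11, Pycr1 and Chac1, whose windows are shown too, were too low to be compared there. Of the 15 genes compared whose promoters hold no match in this window, 11 stood higher too, Psat1, Atf4 and Ddit3 among them, as did 3 of the 7 without a promoter entry. Over genes at 20 CPM or more at both doses, the counts were 4 of 4 with a match, 8 of 12 without and 2 of 6 with no entry. A match describes letters and is no evidence of binding. The genes were taken by name, with genes of the ATF4 response among them. The larger share of matches than among all genes may follow from that choice.

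Across the libraries, the 34 genes together took 0.121% to 0.548% of all UMIs. Their summed level was 1322 CPM in the naive library, 1909 CPM on day 3 without cytokine and 1367 CPM on day 5 without cytokine. Under 50 IU/mL of IL-2 it was 4931, 3617 and 4433 CPM on days 3, 5 and 10, and with 50 IU/mL of IL-2v it was 5484, 4791 and 4105 CPM. With 5 IU/mL of IL-2 it was 2372, 1371 and 1398 CPM on the same days. All 6 libraries with 50 IU/mL of IL-2 or IL-2v lay above the other 15 in this sum. For 50 IU/mL of IL-15 the sum was 3108 CPM on day 3, 2216 CPM on day 5 and 1377 CPM on day 10, close to the naive value. For 18 genes the highest value of all came on day 3 under 50 IU/mL IL-2v, for 7 on day 10 under 50 IU/mL IL-2, and for 6 on day 3 under that same IL-2 dose. The 7 that peaked on day 10 with IL-2 were Slc3a2, Slc7a11, Atf5, Ddit3, Trib3, Chac1 and Aars.

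**Figure D1:**
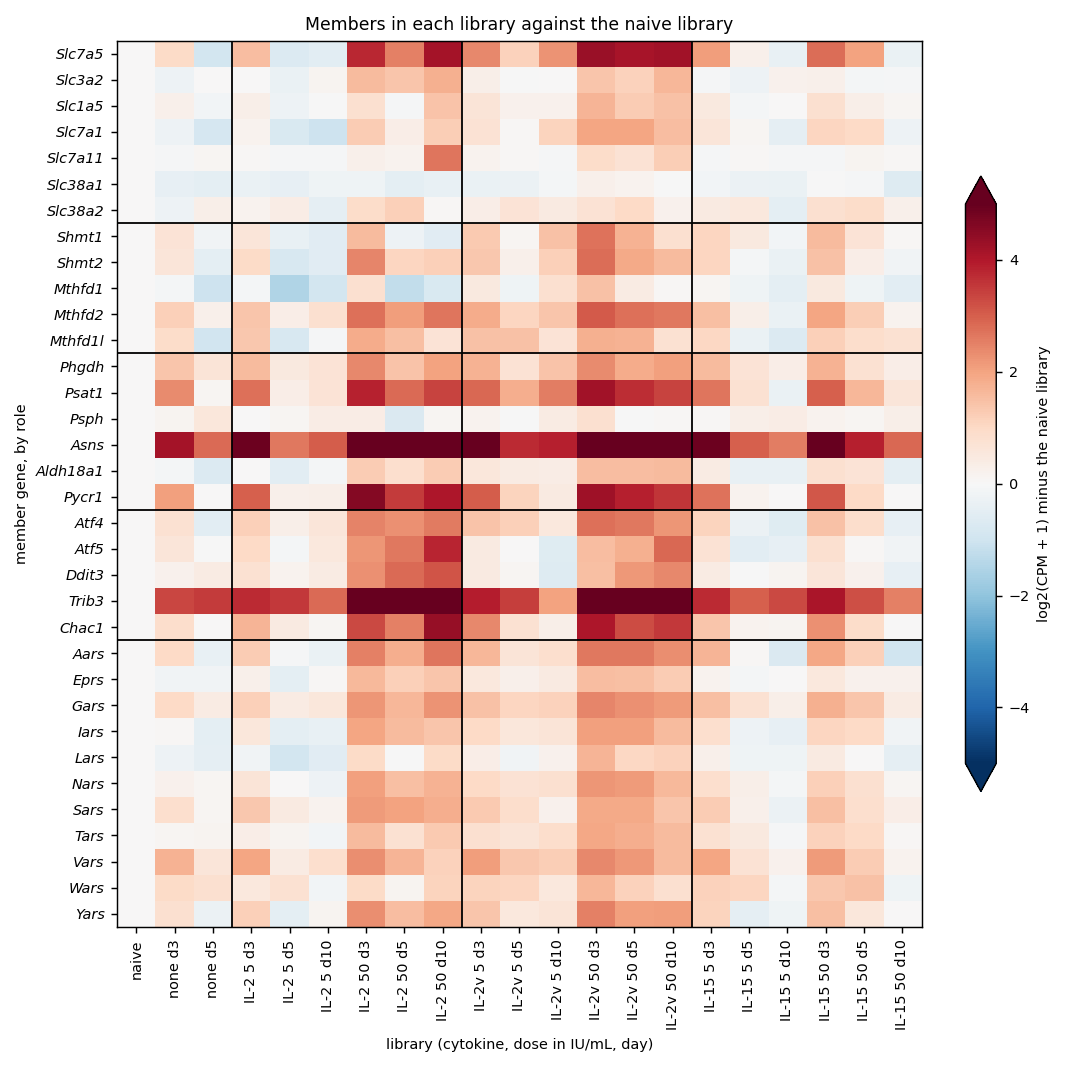
Level of each of the 34 genes in each of the 21 libraries as log2(CPM + 1) minus the naive library (colour, cut at 5 in either direction). Rows are genes by role, columns are libraries by cytokine, dose in IU/mL and day; 18 of the 34 rows have their highest value on day 3 with 50 IU/mL IL-2v, while Shmt1 and Psph have their lowest with 50 IU/mL IL-2, on days 10 and 5.

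Among the transporters, Slc7a5 (chromosome 8, 121881150 to 121907694 in GRCm38), the gene of the leucine carrier LAT1, ranged most among those that reached 20 CPM. It stood at 12.6 CPM in the naive library, 25.2 CPM on day 3 without cytokine and 6.23 CPM (Poisson 95% interval 5.30 to 7.28) on day 5 without cytokine, its lowest value. On days 3, 5 and 10 it read 38.7, 7.53 and 8.43 CPM with 5 IU/mL IL-2, and 186, 76.2 and 244 CPM with 50 IU/mL. The corresponding values for IL-2v were 70.7, 29.3 and 63.5 CPM at the low dose and 268, 234 and 249.5 CPM at the high dose. IL-2v at 5 IU/mL thus lay between the 2 doses of IL-2 on every day. With IL-15, Slc7a5 read 57.1, 15.3 and 9.44 CPM at 5 IU/mL and 93.7, 53.7 and 9.70 CPM at 50 IU/mL, so on day 10 both IL-15 libraries lay below the naive one.

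Slc7a1, the carrier gene of arginine and lysine, followed a similar order over a narrower range. It read 26.3 CPM in naive cells, 21.8 and 14.3 CPM without cytokine, and 64.9, 33.1 and 62.6 CPM with 50 IU/mL IL-2 on days 3, 5 and 10. The high dose of IL-2v gave 107, 107 and 78.7 CPM, and that of IL-15 gave 56.8, 53.6 and 21.9 CPM. Low-dose values were 30.1, 15.1 and 12.4 CPM for IL-2, 43.9, 27.1 and 58.5 CPM for IL-2v, and 40.4, 28.0 and 19.1 CPM for IL-15. Slc3a2, which encodes the CD98 heavy chain that partners SLC7A5, behaved differently from its partner without cytokine and at the low dose. It read 65.1 CPM in naive cells, 54.2 and 66.3 CPM without cytokine, and 51.7 to 79.6 CPM in all 9 libraries with a cytokine at 5 IU/mL. Only 50 IU/mL of IL-2 (196, 173 and 226 CPM) or IL-2v (172, 145 and 210.2 CPM) gave values above that band by a wide margin, while 50 IU/mL IL-15 gave 78.4, 61.5 and 63.2 CPM. The glutamine carrier gene Slc1a5 ranged from 52.8 to 207 CPM. Slc38a1 and Slc38a2, carriers of small neutral amino acids, ranged least, from 88.9 to 168 and from 115 to 374 CPM. Slc7a11 was detected at 0 to 1.47 CPM in 20 libraries and at 5.65 CPM (154 UMIs) under 50 IU/mL IL-2 on day 10.

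Of the one-carbon enzymes, Shmt2, which makes glycine and a folate-bound carbon unit from serine in mitochondria, read 32.6 CPM in naive cells and 50.6 and 22.8 CPM on days 3 and 5 without cytokine. On days 3, 5 and 10 it read 182, 69.7 and 75.9 CPM with 50 IU/mL IL-2 and 234, 126 and 98.9 CPM with 50 IU/mL IL-2v. Its low-dose levels were 64.8, 18.3 and 21.5 CPM with IL-2 and 84.8, 39.7 and 75.04 CPM with IL-2v. IL-15 gave 69.5, 30.9 and 25.9 CPM at the low dose and 90.8, 41.5 and 29.1 CPM at the high dose. Day 3 was the highest day for Shmt2 with each of the 3 cytokines at either dose. Mthfd2, the mitochondrial methylene-tetrahydrofolate dehydrogenase, stood at 172, 108 and 161 CPM with 50 IU/mL IL-2 and 209.8, 172 and 155 CPM with 50 IU/mL IL-2v. It read 24.4 CPM in naive cells, 56.9 and 29.2 CPM without cytokine, and 99.2, 58.1 and 27.9 CPM with 50 IU/mL IL-15. At the low dose Mthfd2 read 65.6, 31.2 and 43.0 CPM with IL-2, 91.2, 52.0 and 65.9 CPM with IL-2v, and 71.9, 30.01 and 19.4 CPM with IL-15.

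Shmt1, the cytosolic counterpart of Shmt2, passed 20 CPM in only 2 libraries, those with 50 IU/mL IL-2v on day 3 (44.7 CPM) and day 5 (21.9 CPM). Its lowest value, 3.63 CPM, came from 50 IU/mL IL-2 on day 10, where Mthfd2 read 161 CPM. Mthfd1, the cytosolic trifunctional enzyme gene, read 9.97 CPM in that library and 31.2 CPM with the same dose on day 3. In this library the 2 cytosolic enzyme genes were thus low and Mthfd2 high, a contrast that rests on Mthfd2 among the mitochondrial genes. Shmt2 lay nearer there to its median over all libraries (64.8 CPM) than to its highest level (234 CPM). Cycling cells made up 13.4% of this library, and their part in these levels was not tested. Mthfd1l, the mitochondrial formate-releasing enzyme, ranged from 11.3 CPM on day 5 without cytokine to 85.7 CPM on day 3 with 50 IU/mL IL-2.

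Among the synthesis enzymes, Asns (chromosome 6, 7675169 to 7693254), the asparagine synthetase gene, was the most sharply graded. The naive library held 1 UMI of it (0.0541 CPM), and activation without cytokine gave 17.9 CPM on day 3 and 6.54 CPM on day 5. At the high dose of IL-2, Asns read 147, 84.6 and 146 CPM on days 3, 5 and 10, and with IL-2v 132, 115 and 116 CPM. The low dose gave 30.7, 5.49 and 7.62 CPM with IL-2, 34.2, 13.0 and 14.4 CPM with IL-2v, and 30.6, 7.39 and 5.15 CPM with IL-15. Even at 50 IU/mL, IL-15 gave 37.5, 14.6 and 6.72 CPM, so all 15 libraries other than those with 50 IU/mL of IL-2 or IL-2v lay under 40 CPM. Pycr1, the last enzyme of proline synthesis, had no UMI in naive cells, which allows up to 0.162 CPM by a limit of 3 counts, and none on day 5 without cytokine or on day 10 with IL-15 at either dose. It reached 23.3, 10.2 and 15.3 CPM with 50 IU/mL IL-2 and 17.9, 13.8 and 11.1 CPM with 50 IU/mL IL-2v.

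Psat1 (chromosome 19, 15904678 to 15947337), the aminotransferase of the serine pathway, was already present in naive cells. It read 12.2 CPM there, 67.5 CPM on day 3 and 13.1 CPM on day 5 without cytokine. On days 3, 5 and 10 it read 187, 93.2 and 136 CPM with 50 IU/mL IL-2, 241, 168 and 134 CPM with 50 IU/mL IL-2v and 105, 41.0 and 18.9 CPM with 50 IU/mL IL-15. At the low dose it read 87.6, 15.4 and 19.9 CPM with IL-2, 95.3, 45.8 and 76.4 CPM with IL-2v, and 83.7, 21.1 and 9.35 CPM with IL-15. The low-dose libraries of all 3 cytokines lay within 83.7 to 95.3 CPM on day 3 and spread apart from day 5 on. Phgdh, which opens the serine pathway, ranged from 63.4 CPM in naive cells to 339 CPM on day 3 with 50 IU/mL IL-2. Psph, which closes it, ranged from 22.1 to 65.3 CPM and was lowest on day 5 with 50 IU/mL IL-2, where Psat1 (93.2 CPM) and Phgdh (171 CPM) stood above their naive levels. Aldh18a1, which starts proline synthesis, ranged from 9.23 to 48.5 CPM.

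Within the stress group, the mRNA of Atf4 itself (chromosome 15, 80255184 to 80257541) read 66.6 CPM in naive cells and 113 and 46.4 CPM on days 3 and 5 without cytokine. On days 3, 5 and 10 it read 374, 325 and 411 CPM with 50 IU/mL IL-2, 458, 417 and 311 CPM with 50 IU/mL IL-2v and 184, 124 and 50.4 CPM with 50 IU/mL IL-15. Low doses gave 153, 81.9 and 101 CPM with IL-2, 178, 152 and 95.6 CPM with IL-2v, and 144, 53.5 and 42.9 CPM with IL-15. These are mRNA levels; ATF4 is controlled largely at translation, and its protein was not measured here.

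Ddit3 (chromosome 10, 127290774 to 127296288), which encodes the stress factor CHOP, was higher on each later day at the high dose of IL-2 and IL-2v. It read 119.7, 178 and 220.0 CPM on days 3, 5 and 10 with 50 IU/mL IL-2, and 70.0, 112 and 131 CPM with IL-2v. All other libraries lay within 15.2 to 41.4 CPM, the naive one at 24.1 CPM. Atf5, a factor related to ATF4, showed the same order, with 22.1, 30.3 and 69.6 CPM for 50 IU/mL IL-2, 13.5, 16.0 and 35.6 CPM for IL-2v, and 2.30 to 9.11 CPM in the other 15 libraries. IL-2v lay below IL-2 at the high dose on each of the 3 days for these 2 genes. Trib3, a pseudokinase that feeds back on ATF4, had 10 UMIs in naive cells (0.541 CPM) and 14.7 and 16.4 CPM without cytokine. The high doses gave 89.2, 82.2 and 122 CPM for IL-2, 86.5, 87.7 and 81.5 CPM for IL-2v and 24.9, 13.4 and 7.88 CPM for IL-15. In all 9 low-dose libraries Trib3 lay between 5.15 and 22.3 CPM. Chac1 peaked at 19.6 CPM on day 10 with 50 IU/mL IL-2 and had 0 UMIs in naive cells.

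**Figure D2:**
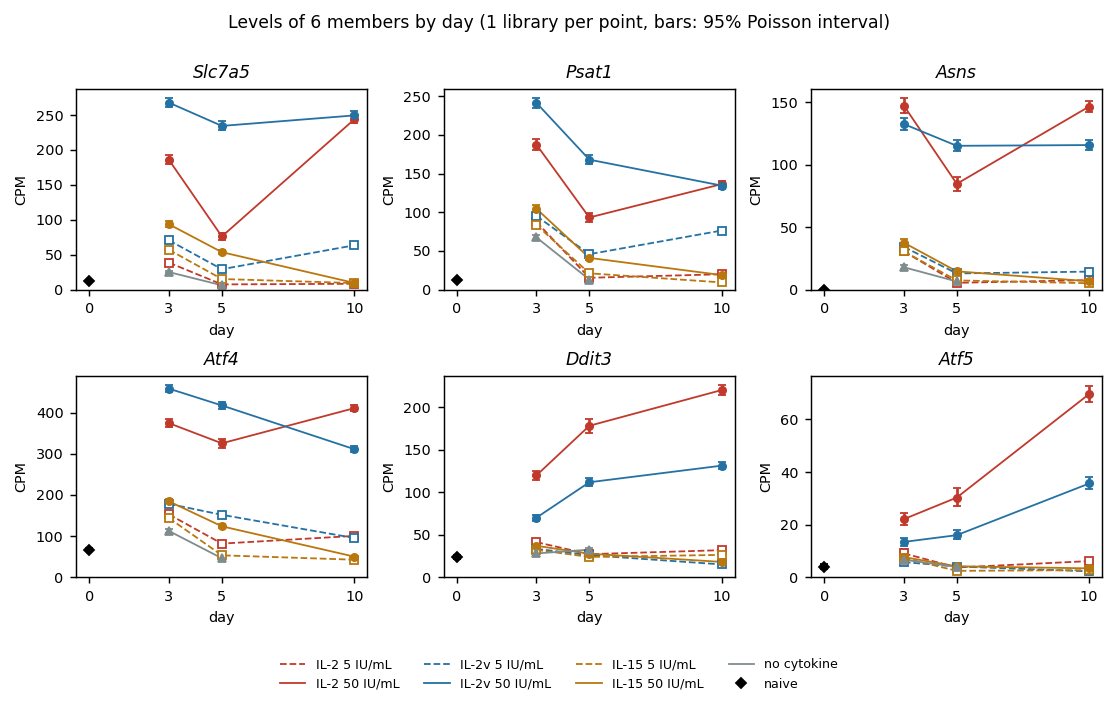
Levels in CPM (y axis, from 0) of Slc7a5, Psat1, Asns, Atf4, Ddit3 and Atf5 by day (x axis), 1 library per point with its Poisson 95% interval; filled circles and solid lines are 50 IU/mL, open squares and dashed lines 5 IU/mL. Ddit3 and Atf5 are highest on day 10 with 50 IU/mL IL-2 (220.0 and 69.6 CPM), whereas Psat1 is highest on day 3 with 50 IU/mL IL-2v (241 CPM).

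Of the tRNA synthetase genes, which load amino acids onto tRNAs, Aars (alanine) ranged most. It read 17.8 CPM in naive cells, 36.1 and 13.4 CPM without cytokine, and 108, 65.7 and 118 CPM with 50 IU/mL IL-2. IL-2v at 50 IU/mL gave 116, 115 and 93.2 CPM and IL-15 gave 70.9, 42.3 and 8.47 CPM, the last being the lowest of all libraries. At the low dose Aars read 43.9, 16.9 and 14.0 CPM with IL-2, 58.6, 28.5 and 32.3 CPM with IL-2v, and 59.6, 18.5 and 10.5 CPM with IL-15. Exons of Aars share 14.3% of their bases with Exosc6 on the same strand, so part of its count may belong to that gene. Yars (tyrosine) read 12.9 CPM in naive cells, 23.1 and 10.3 CPM without cytokine, 68.8, 39.9 and 51.7 CPM with 50 IU/mL IL-2 and 79.5, 56.3 and 58.7 CPM with IL-2v. The high dose of IL-15 gave 38.5, 19.4 and 13.1 CPM, and 5 IU/mL of any cytokine 8.98 to 35.2 CPM. Wars (tryptophan) had the narrowest range, 18.4 to 70.2 CPM, and its second highest library was that of day 5 with 50 IU/mL IL-15 (60.1 CPM). Lars (leucine) read 47.05 CPM in naive cells and 38.8 and 34.2 CPM without cytokine, and on days 3, 5 and 10 it read 91.5, 45.9 and 92.5 CPM with 50 IU/mL IL-2 and 153, 98.1 and 106 CPM with IL-2v. Its levels with 50 IU/mL IL-15 (64.7, 47.8 and 33.96 CPM) and with 5 IU/mL of any cytokine (24.4 to 58.9 CPM) overlapped. The 8 genes other than Aars, Yars and Wars had ratios of highest to lowest level between 4.31 and 6.28.

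In the comparisons that follow, levels were set against each other as log2(CPM + 1), which makes changes of low genes look smaller, and a gene was compared where it averaged at least 20 CPM in either arm. With 1 pair of libraries, a gene was counted as higher or lower when its log2 difference reached 1 in size. With several pairs it also had to have the same sign in every pair, and the size refers to the median. A low gene that passes the 20 CPM limit only through the arm where it is high had to differ between the arms on average. The limit sets the direction of that difference, but not its size or its sign in each pair. Counts over genes at 20 CPM or more in both arms are therefore given where they bear on a result. This choice was made after seeing the data. Counts for 1 pair out of several are given over either arm only, and can include such low genes.

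After activation without cytokine, part of the serine pathway was higher. On day 3 without cytokine, 5 of 25 genes compared were higher than in naive cells and none was lower, against 11.1% higher and 8.31% lower of all genes. They were Psat1 (log2 difference 2.38), the synthetase gene Vars (1.75), Phgdh (1.38), Mthfd2 (1.19) and the synthetase gene Gars (1.01). The median of the 25 was 0.62 and that of all genes −0.11. The 6 transporters had a median of −0.26, none counted, with Slc7a5 at 0.95. Asns and Trib3, at log2 differences of 4.17 and 3.35, stayed under 20 CPM in either library and were not counted. Psat1 passed 20 CPM only through the day 3 library. Of the 21 genes at 20 CPM or more in both libraries, 4 were higher, against 5.38% of all such genes, and their median was 0.23. In non-cycling cells the count was 3, and of the 5 genes only Psat1 and Vars were still among them. The median there was 0.20, and 7.86% of all genes were higher and 11.1% lower. Cycling cells made up 60.0% of the day 3 library and 3.01% of the naive one.

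Without cytokine these levels did not last. From day 3 to day 5, 8 of 25 genes were lower and 0 higher, against 9.47% lower and 3.61% higher of all genes. Of the 18 genes at 20 CPM or more in both libraries, 3 were lower (Atf4, Shmt2 and Vars), against 4.3% of all such genes, and their median was −0.16. Psat1 fell by 2.28, Mthfd1l by 1.90, Slc7a5 by 1.86, Aars by 1.36 and Atf4 by 1.26 on the log2 scale, and Vars, Shmt2 and Yars fell by 1.13, 1.12 and 1.10. The median of the 25 genes was −0.58, against −0.00 for all genes. Ddit3, with a difference of 0.20, and Slc38a2, with 0.57, were among the 5 genes with a positive sign. The share of cycling cells was 60.0% on day 3 and 13.8% on day 5, and in non-cycling cells 3 genes were counted, Psat1, Mthfd1l and Atf4, against 4.99% of all genes, with a median of −0.32. An alternative scaling, trimmed means of M values (TMM), moved the median of all genes to 0.12 and the split of all genes to 8.25% lower and 5.06% higher, with 7 of the 25 counted.

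Against the libraries without cytokine of the same day, the 3 cytokines gave counts of different size. The comparisons cover 5 and 50 IU/mL on days 3 and 5, 4 pairs each, and share the same 2 control libraries, so their results are not independent. IL-2v stood higher for 19 of 30 genes, against 6.25% of all genes, and lower for 0, against 1.05%. IL-2 stood higher for 4 of 28, against 1.77%, and lower for 0, against 0.8%. IL-15 stood higher for 2 of 27, against 0.377%, and lower for 0, against 0.0538%. The medians over the genes compared were 1.24 for IL-2v, 0.85 for IL-2 and 0.54 for IL-15, with 0.17, 0.05 and 0.04 over all genes.

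For IL-2v the 19 genes included the one-carbon enzymes Shmt2, Mthfd2 and Mthfd1l, and Shmt1 and Mthfd1, which passed 20 CPM only through IL-2v and were not counted with TMM scaling or a pseudocount of 10 CPM. The others were 8 of 11 synthetases, 3 of 5 synthesis enzymes, 2 of 6 transporters and, of 3 stress genes, Atf4. Among the 22 genes at 20 CPM or more in both arms, 12 were higher, against 4.01% of all such genes. By role these were 3 of 3 one-carbon enzymes, 7 of 10 synthetases, 1 of 3 synthesis enzymes, 0 of 4 transporters and 1 of 2 stress genes. The largest medians were those of Slc7a5 (2.71, from 1.45 to 5.03 over the 4 pairs), Asns (1.86), Atf4 (1.85), Psat1 (1.78) and Mthfd1l (1.64). Slc7a5 and Asns averaged under 20 CPM without cytokine and so passed only through IL-2v. In non-cycling cells, 15 of the 19 were still higher. Tars (0.998, just under the limit) and Gars (0.87) were not counted there, and Shmt1 (0.76) and Mthfd1 (0.76) were too low to be compared. TMM scaling lowered the median of all genes from 0.17 to −0.03 and the split of all genes to 3.95% higher and 2% lower. With it, 14 of 29 genes compared were counted. When ribosomal protein and mitochondrial genes were left out of the totals, the median over all genes was 0.06 and 17 genes were counted. For IL-2 the 4 genes were Slc7a5 (1.72), Trib3 (1.31), Atf4 (1.26) and Iars (1.22), the isoleucine synthetase gene, of which Atf4 and Iars averaged at least 20 CPM in both arms. The same number was counted with TMM scaling, where 1.36% of all genes were higher and 0.96% lower. In non-cycling cells Slc7a5 had a median of 1.89 but not the same sign in every pair, and Trib3 had one of 0.96, so neither was counted. Trib3 was also not counted with the mean CPM of single cells or without possible doublets. Without the day 3 pairs 8 genes were counted for IL-2, against 6.65% of all genes, and without the day 5 pairs 10, against 1.69%.

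The small count for IL-2 came with a wide gap between its doses. At 5 IU/mL, IL-2 stood higher than no cytokine for 0 of 26 genes on day 3, against 0.142% of all genes, and 0 of 18 on day 5, against 2.14%. The dose of 50 IU/mL stood higher for 24 of 31 on day 3, against 6.45%, and for 21 of 29 on day 5, against 16.5%. Psph was the only gene lower than without cytokine on day 5 at that dose (log2 difference −1.32), against 7.54% of all genes. IL-2v at 5 IU/mL stood higher for 1 of 29 genes on day 3, Slc7a5, against 0.211%, and for 7 of 25 on day 5, against 9.75%. Its high dose stood higher for 23 of 30 on day 3, against 7.83%, and for 26 of 30 on day 5, against 21.1%. IL-15 at 5 IU/mL stood higher for 1 of 27 on day 3, against 0.142%, and 0 of 21 on day 5, against 1.42%. At its high dose the counts were 6 of 29, against 0.819%, and 8 of 25, against 5.82%. These counts by day include genes that passed 20 CPM only through the cytokine library and so had to differ. On day 5 at 50 IU/mL of IL-2 and IL-2v, Slc7a5, Asns and Psat1 were among them. For IL-15 the 2 genes counted over all 4 pairs were the carrier genes Slc7a5 (1.51) and Slc7a1 (1.13), neither of which averaged 20 CPM without cytokine. Without the day 3 pairs 5 genes were counted for IL-15, against 3.05% of all genes.

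The 2 doses of IL-2, and those of IL-2v, lay far apart for most of these genes over all 3 days. From 5 to 50 IU/mL, 21 of 29 genes were higher with IL-2 on days 3, 5 and 10, and 19 of 31 with IL-2v. No gene was lower with either. The background was 4.29% higher and 2.7% lower of all genes for IL-2, and 2.38% and 0.626% for IL-2v. The medians of the genes were 1.48 and 1.15, beside 0.03 and 0.10 for all genes. With IL-15, 1 of 26 genes was higher, Mthfd1l (median 1.23), and 0 were lower, against 0.869% and 0.181% of all genes, with a median of 0.33 beside 0.02. By day, 6 of 25 genes were higher at the high dose of IL-15 on day 5, against 2.13% (Slc7a5, Iars, Mthfd1l, Atf4, Aars and Aldh18a1), and 0 of 29 on day 3, against 0.0176%. Mthfd1l was not counted for IL-15 without day 5 or with a pseudocount of 10 CPM.

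Of the genes at 20 CPM or more in both arms, 14 of 22 were higher with IL-2, against 2.6% of all such genes, and 17 of 28 with IL-2v, against 1.16%. Among the stress genes, Atf4 (medians of 1.98 with IL-2, 1.45 with IL-2v) and Ddit3 passed 20 CPM in both arms and were higher with either cytokine. Atf5 and Trib3, also higher with both, passed only through the high dose. The 11 synthetases had 9 and 6 genes counted, the synthesis enzymes 3 of 5 with either cytokine, and the transporters 3 and 4 of 6. Over genes at 20 CPM or more in both arms, IL-2 had 8 of 10 synthetases, 1 of 3 synthesis enzymes and 1 of 4 transporters counted. For IL-2v these counts were 6 of 11, 3 of 5 and 4 of 6. Of the one-carbon enzymes, Shmt2 and Mthfd2 were counted with either cytokine. The largest medians for IL-2 were Asns 3.72, Slc7a5 3.18, Atf5 2.72, Ddit3 2.66 and Psat1 2.52. Of these, Asns, Slc7a5 and Atf5 averaged under 20 CPM at the low dose and had to differ. The largest medians for IL-2v were Asns 2.92, Trib3 2.40, Ddit3 2.06, Slc7a5 1.96 and Atf5 1.73. The IL-2 and IL-2v dose comparisons share no library, and 18 genes were counted in both, which is 85.7% of those for IL-2 and 94.7% of those for IL-2v. Over all genes, 89 were higher in both, 35.3% and 63.1% of the respective lists. Both overlaps include genes that passed 20 CPM only through the high dose, and neither was taken over both arms. Eprs, Gars and Sars were counted for IL-2 alone, at medians of 0.99, 0.96 and 0.99 for IL-2v, just under the limit. Slc1a5 was counted for IL-2v alone (1.05 against 0.50 for IL-2).

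Some genes had small medians by dose with either cytokine, though not on each day. Vars had medians of 0.36 for IL-2 and 0.37 for IL-2v, Wars 0.40 and 0.31, Psph −0.26 and 0.01, and Slc38a1 −0.07 and 0.47. On single days with IL-2, Vars reached 1.29 (day 5) and Wars 1.215 (day 10). In non-cycling cells, all 21 genes of IL-2 and 18 of the 19 of IL-2v were still counted, the exception being Slc3a2 (0.94, against 1.145 in all cells). TMM scaling left 22 genes counted for IL-2 and 14 for IL-2v, where it moved the median of all genes from 0.10 to −0.03 and the split of all genes to 1.75% higher and 0.987% lower. Without day 5 the split of all genes for IL-2 was 3.78% higher and 5.45% lower, with 22 of these genes higher and 0 lower.

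**Figure D3:**
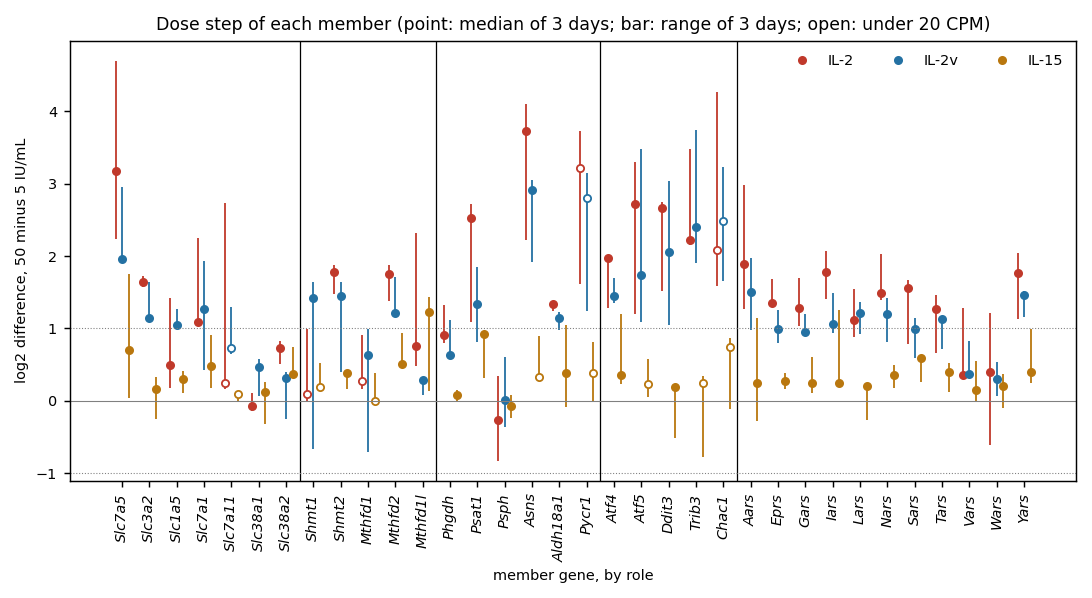
Log2 difference between 50 and 5 IU/mL (y axis) for each of the 34 genes (x axis, by role), with IL-2 in red, IL-2v in blue and IL-15 in ochre; points are medians and bars the range of days 3, 5 and 10, and open points mark genes under 20 CPM. The red and blue points of Slc7a5, Asns and the stress genes lie between 1.45 and 3.72, and among the ochre points only that of Mthfd1l (1.23) lies above 1.

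IL-2v was next set against IL-2 at equal day and dose. Equal dose, here and below, means an equal number of IU/mL. Whether that is an equal amount of each cytokine was not tested. Of 30 genes compared, 12 had a positive sign in all 6 pairs, and only Slc7a5 (median 1.23) and Mthfd1 (1.07), which passed 20 CPM through IL-2v alone, were counted as higher, against 1.04% of all genes, and 0 as lower, against 0.274%. The median of the 30 was 0.41 and that of all genes 0.06. Without day 5, the 31 genes compared had a median of 0.25, beside 0.02 for all genes. The count was 0 under 4 alternatives: TMM scaling, the mean CPM of single cells, a pseudocount of 10 CPM, and non-cycling cells. The median of Slc7a5 stayed between 0.95 and 1.25 under all 7 alternatives of processing, and that of Mthfd1 between 0.63 and 1.07. Without possible doublets, without day 5 or without day 10 the count was 1. With TMM scaling the split of all genes was 0.621% higher and 0.432% lower.

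The roles did not move together in every pair of this comparison. The stress genes had positive medians at 5 IU/mL on day 3 (0.20) and day 5 (0.41). On day 5 at 50 IU/mL, the medians were 0.99 for transporters, 0.84 for one-carbon enzymes, 0.71 for synthesis enzymes and 0.60 for synthetases, but −0.29 for the stress genes. On day 10 at 5 IU/mL, they were 0.57, 1.23, 0.59 and 0.63, with −0.55 for the 2 stress genes compared. Ddit3 had a negative sign in all 6 pairs, from −1.02 to −0.06, with a median of −0.70. Atf5 had a median of −0.78, negative in 5 pairs. Atf4 itself was positive in 4 of the 6 pairs, with a median of 0.26 (−0.40 to 0.88). None of these 3 was counted over the 6 pairs.

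How far IL-2v and IL-2 lay apart also differed by dose and day. At 5 IU/mL the difference in Slc7a5 was 0.85, 1.83 and 2.77 on days 3, 5 and 10, and at 50 IU/mL it was 0.52, 1.61 and 0.03. Psat1 differed by 1.89 on day 10 at 5 IU/mL and by −0.02 at 50 IU/mL. On day 5, 5 of 25 genes were higher with IL-2v at 5 IU/mL, against 7.29% of all genes, and 8 of 31 at 50 IU/mL, against 5.73%. On day 10, 9 of 27 genes were higher with IL-2v at 5 IU/mL, against 6.78% of all genes, and 1 lower (Ddit3), against 7.74%. At 50 IU/mL on that day 0 of 29 were higher, against 2.77%, and 0 lower, against 2.16%. The libraries with 5 IU/mL on day 10 held 40.6% cycling cells with IL-2v and 18.2% with IL-2.

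**Figure D4:**
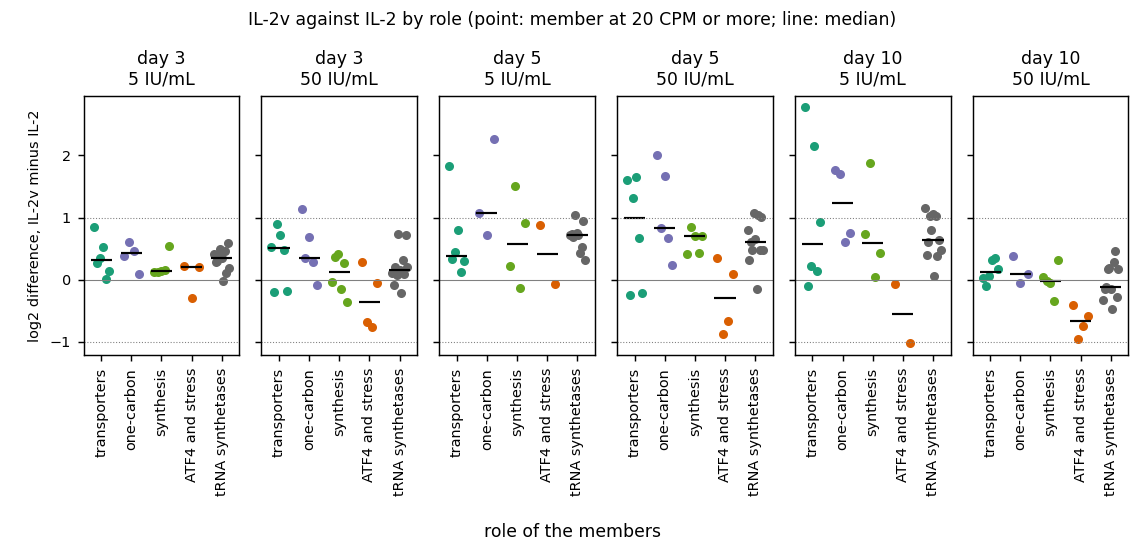
Log2 difference between IL-2v and IL-2 (y axis) in the 6 pairs of equal day and dose (panels), by role of the genes (x axis); each point is a gene at 20 CPM or more in either library and each black line the median of a role. The ATF4 and stress group (orange) has its median below 0 in 4 of 6 panels, and the medians of the one-carbon and synthesis enzymes lie highest on days 5 and 10 at 5 IU/mL and on day 5 at 50 IU/mL.

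IL-15 was next set against IL-2 at equal day and dose. Of 29 genes compared over the 6 pairs, Atf4 (median −1.11), Ddit3 (−1.01) and Atf5 (−1.18), which passed 20 CPM only through the IL-2 libraries, were lower and 0 were higher, against 1.7% lower and 0.49% higher of all genes. The median of the 29 was −0.32, and that of all genes −0.01. The same 3 genes were counted in non-cycling cells. Ddit3 lay close to the limit and was counted under 3 of 7 alternatives of processing. With totals that leave out ribosomal protein and mitochondrial genes, neither Atf4 (−0.98) nor Ddit3 was counted, and Atf5 alone was. Without day 10, 1 gene was counted. At 50 IU/mL, 8 of 31 genes were lower with IL-15 on day 3, against 3.62% of all genes. On day 5 the count was 10 of 29, against 8.01%, and on day 10 it was 24 of 29, against 11.6%. The day 10 count includes genes that passed 20 CPM only through IL-2 and so had to differ, Slc7a5, Asns and Psat1 among them. On day 5 at 5 IU/mL, 0 of 21 genes were lower, against 0.948% of all genes, and 17 had a positive sign. On day 10 at that dose, 2 of 18 were lower (Atf4 and Mthfd2), against 9.19%, and 7 had a positive sign.

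Set against IL-15, IL-2v was higher for 7 of 29 genes, against 2.48% of all genes, and lower for 0, against 0.585%. They were Slc7a5 (1.81), Psat1 (1.60), Asns (1.56), Shmt2 (1.43), Atf4 (1.40), Mthfd2 (1.31) and Iars (1.02). The median of the genes was 0.77, against 0.10 for all genes. TMM scaling gave 6 genes, a median of 0.67 and a split of all genes of 1.51% higher and 0.918% lower, and a scaling that omits ribosomal protein and mitochondrial genes gave 6 genes and a split of 1.53% and 0.867%. Asns passed 20 CPM only through IL-2v, and of the 25 genes that passed in both arms 6 were higher, against 1.49% of all such genes. The count was 11 without day 3, against 6.33% of all genes. In non-cycling cells Mthfd2 (0.997, just under the limit) and Iars (0.86) were not counted. This comparison uses the same IL-2v and IL-15 libraries as the comparisons with IL-2 above.

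From day 3 to day 5, with the 3 cytokines at either dose, 4 of 30 genes were lower and 0 higher, against 2.22% lower and 0.829% higher of all genes: Asns (−1.32), Slc7a5 (−1.26), Psat1 (−1.19) and Shmt2 (−1.13). The median was −0.50, against −0.10 for all genes. Of the 30 genes, 23 had a negative sign in all 6 pairs, while Slc38a2 was positive in all 6 (0.07 to 0.36) and Ddit3 at 50 IU/mL of IL-2 and IL-2v (0.57 and 0.67). The 4 genes counted were also counted in non-cycling cells. The count was small with 50 IU/mL IL-2v, where 1 of 30 genes was lower (Mthfd1), against 0.495% of all genes. It was larger with 5 IU/mL of IL-2, at 11 of 26, against 11.6%, and of IL-15, at 12 of 27, against 8.3%. Without IL-2v, 8 genes were counted, against 4.67% of all genes. TMM scaling moved the median of all genes to 0.01 and their split to 1.55% lower and 1.17% higher, with 4 of these genes counted.

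From day 5 to day 10 the series parted, and 0 of 28 genes were counted in either direction, against 0.0705% higher and 1.62% lower of all genes. TMM scaling moved the median of all genes from −0.09 to 0.06. With 50 IU/mL IL-2, 24 of 29 genes had a positive sign, and Slc7a5 (1.665), Slc1a5 (1.48) and Atf5 (1.17) were higher, against 5.99% of all genes. Slc38a2 was lower (−1.16), against 19.4%. In that series the share of cycling cells went from 50.4% to 13.4%. With 50 IU/mL IL-15, 10 of 25 genes were lower, against 4.44% of all genes, led by Slc7a5 (−2.355), Aars (−2.19), Wars (−1.65) and Atf4 (−1.28), and 0 were higher, against 0.823%. With 50 IU/mL IL-2v the median was −0.23, and only Atf5 was higher (1.11), against 1.58% of all genes. Day 5 libraries serve in both day comparisons.

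Against the naive library, the end points differed widely. On day 10 with 50 IU/mL, 24 of 29 genes were higher with IL-2, against 13.1% of all genes, and 24 of 29 with IL-2v, against 10.4%. Of the 21 genes at 20 CPM or more in naive cells too, 16 were higher with IL-2, against 8.12% of all such genes, and 16 with IL-2v, against 5.47%. With 50 IU/mL IL-15 on day 10, 0 of 21 were higher and 0 lower, against 3.2% and 6.21% of all genes. The low dose on day 10 gave 0 higher genes of 21 for IL-2, against 9.49%, where Slc7a1 was lower, against 5.54%. For IL-2v 8 of 27 were higher, against 9.11%, and 6 of the 20 at 20 CPM or more in both libraries, against 4.85%. For IL-15 the count was 0 of 21, against 1.25%. All of these share the single naive library.

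Proliferation was examined within libraries, since it differed so much between them. In each of the 21 libraries, cells with a Mki67 or Top2a UMI were set against the other cells. Of 29 genes compared, 9 were higher in cycling cells in all 21 libraries (Slc7a1, Mthfd1, Mthfd2, Mthfd1l, Psat1, Aars, Gars, Nars and Vars), against 577 of all 5772 genes compared, 10%. None of the 29 was higher in all 21 libraries with a median of 1 or more, against 3.17% of all genes. The median of the genes was 0.32, against 0.07 for all genes. Psat1 had the highest median of the 29 (0.94, from 0.45 to 1.79), followed by Slc7a5 (0.81, higher in 19 libraries), Vars (0.73), Shmt2 (0.70) and Mthfd1 (0.66). Of the stress genes, Atf4 had a median of 0.32 (higher in 18 libraries), Ddit3 0.00 (11 libraries) and Trib3 0.07 (11 libraries). Under 20 CPM, Shmt1 had a median of 1.19 (19 libraries), the highest of all 34 genes, Chac1 had a median of 0.40 (16 libraries) and Atf5 had one of −0.23 (5 libraries). Wars was higher in 6 libraries (−0.13). The classes also differ in depth: median UMIs were 3546 to 6424 in cycling cells and 2634 to 4958 in non-cycling cells of the same libraries.

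**Figure D5:**
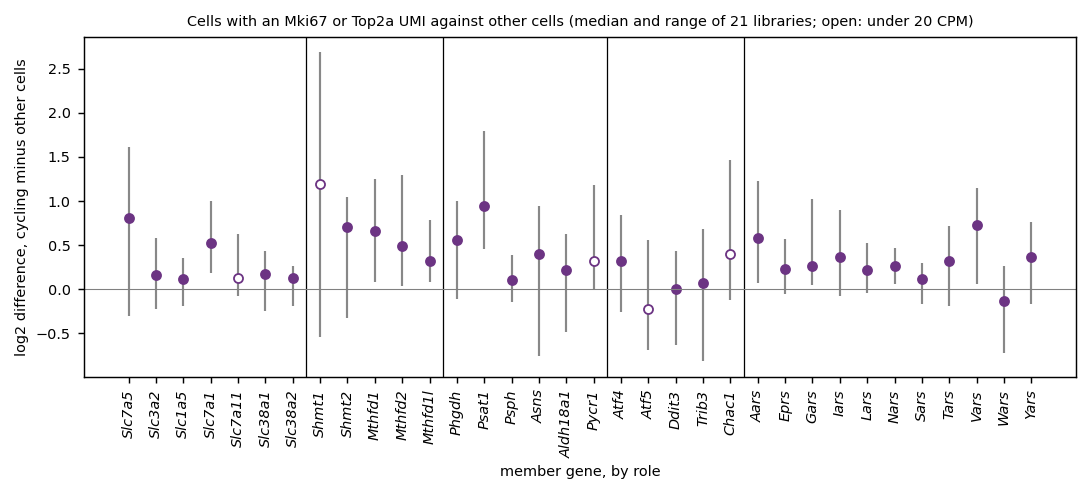
Log2 difference between cells with a Mki67 or Top2a UMI and the other cells of the same library (y axis) for the 34 genes (x axis, by role); points are medians and bars ranges over 21 libraries, and open points mark genes under 20 CPM. Psat1 has the highest median among genes at 20 CPM or more (0.94), Shmt1 among those under it (1.19), and Ddit3 lies at 0.00.

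Levels of summed UMIs do not show how many cells contribute, so shares of cells with a UMI were taken after thinning each cell to 2000 UMIs. Intervals are exact Clopper-Pearson 95% intervals. On day 10, Slc7a5 was seen in 35.8% (34.5 to 37.2) of cells with 50 IU/mL IL-2 and 36.0% (34.7 to 37.4) with 50 IU/mL IL-2v. At 5 IU/mL it was seen in 1.17% (0.913 to 1.47) with IL-2 and 10.1% (9.40 to 10.9) with IL-2v, and with IL-15 in 1.65% at each dose. Ddit3 was seen on day 10 in 29.98% (28.7 to 31.3) of cells with 50 IU/mL IL-2, 20.4% (19.3 to 21.6) with 50 IU/mL IL-2v and 2.74% (2.35 to 3.18) with 5 IU/mL IL-2v. In naive cells, Slc7a5 was seen in 2.505% and Ddit3 in 4.65%. Asns was seen in 0 of 4471 naive cells, which by the limit of 3 counts allows a share of cells with a UMI of up to 0.0671% at this depth (exact interval up to 0.0825%) and does not bound the share expressing the gene. It was seen in 22.6% of cells on day 10 with 50 IU/mL IL-2. The shares followed the order of the CPM values, with the 2 IL-15 libraries alike in both for Slc7a5. No cell type that lacks these genes was present, so a background of free RNA could not be read for them.

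Cells with a UMI of the heat shock gene Hspa1a were frequent in 2 libraries only, and there they were compared with the rest. On day 3 with 50 IU/mL IL-2, 232 cells had an Hspa1a UMI and 3239 had none, and on day 5 the numbers were 353 and 2897. No gene passed a log2 difference of 1 in size in either library, against 0.732% higher and 0.433% lower of all genes on day 3, and 0.91% and 2.18% on day 5. Ddit3 came nearest on day 3, at 166 CPM in cells with an Hspa1a UMI and 116 CPM in the others. Atf4 stood at 448 and 368 CPM, Trib3 at 91.3 and 89.1 CPM and Atf5 at 22.6 and 22.1 CPM. On day 5 in the same order of cells, Ddit3 read 191 and 176 CPM and Atf4 367 and 320 CPM. Trib3 read 66.8 and 84.0 CPM on that day, and Atf5 25.2 and 30.9 CPM. Iars came nearest on day 5, in the other direction, at 47.7 CPM in cells with an Hspa1a UMI and 79.6 CPM in the others. Without cells that had an Hspa1a UMI, an alternative chosen after seeing the data, 21 genes were higher at 50 IU/mL of IL-2, as before.

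Other genes of these pathways were followed as lists. Of 25 further ATF4 targets and feedback genes, 12 of 15 compared were higher at 50 IU/mL of IL-2 and 0 lower, 5 of 14 with IL-2v and 1 of 8 with IL-15, against 4.29%, 2.38% and 0.869% of all genes higher. Many of them passed 20 CPM only through the high dose: of those that passed in both arms, 5 of 8 were higher with IL-2, against 2.6%, 0 of 9 with IL-2v, against 1.16%, and 0 of 7 with IL-15, against 0.553%. Between IL-15 and IL-2, 6 of 12 were lower with IL-15, against 1.7% (Ddit4, Nupr1, Eif4ebp1, Stc2, Ero1l and Ndrg1). Of the 8 that passed in both arms 4 were lower, against 0.694%. The 1 gene higher with the dose of IL-15 was Ndrg1. Whether ATF4 drives any of these genes here was not tested. Of 17 endoplasmic reticulum stress targets of ATF6 and XBP1, 3 of 14 were higher with the dose of IL-2 (Hspa5, Hsp90b1 and Xbp1) and 1 of 14 with that of IL-2v (Xbp1). Among the remaining cytosolic synthetases and AIMP scaffold proteins, 2 of 12 (Cars and Mars, neither averaging 20 CPM at the low dose) and 1 of 12 (Cars) were higher. The 17 mitochondrial synthetases, 4 of them compared, had 0 counted with the dose of either cytokine and medians of 0.11 and −0.06. The list of eIF2 kinases, a phosphatase subunit and genes of the initiation factors eIF2, eIF2A and eIF2B had 0 of 10 and 0 of 11 counted. The GCN2 gene Eif2ak4, at 14.6 CPM or less in every library, was too low to be compared. Of 25 other amino acid transporters, 22 were found, and 0 of 4 and 1 of 5 compared were counted. The rest were too low to be compared, so these counts do not describe them. Among that rest, Slc7a3, Slc1a4 and Slc6a9 were higher at the high dose of both cytokines on each day. Slc43a1 and Slc36a1 were lower. On day 10, Slc7a3 read 0.1008 CPM at 5 and 17.01 CPM at 50 IU/mL of IL-2, and Slc43a1 read 1.512 and 0.2567 CPM. Of 23 other one-carbon genes, 0 of 8 and 0 of 9 compared were counted. Proline and glutamine enzymes outside the 34 had 0 of 8 and 0 of 9 counted. The Mars and Ddit3 genes overlap on opposite strands over 3.97% of the exonic bases of Ddit3. Among the 34 genes the largest overlap with a gene on the opposite strand was that of Psph with Cct6a, over 10.4% of the exonic bases of Psph.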

How the data were processed

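The authors deposited tables of UMI counts per gene and cell, 1 table per library. Per the submitters' processing notes, Cell Ranger, Seurat 4.0.1 and 3.0.2 and the mm10 build were used, with no role or order given, and whether counting used the strand is not given in the sources used here. The labels' protocols describe both culture and sorting of tumour-infiltrating cells, and the titles and treatments were followed. Groups came from the titles, 1 library per condition.

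Cells below 1000 UMIs or 500 genes, or above 10% mitochondrial UMIs, were removed (2 cells in all). The UMIs of each library were added up over its cells and scaled to its total to give CPM, whose 95% intervals are exact Poisson intervals. Libraries were compared as log2(CPM + 1) where a gene averaged 20 CPM or more in either arm; requiring both arms was an alternative. Each comparison was computed over the whole table, and the share of all genes past the same limit is given beside the first count. For shares of cells, cells under 2000 UMIs were left out and the others thinned to 2000. No doublet caller was run; possible doublets, cells above 2 times the library's median UMIs, were left out in an alternative. The genes and lists were chosen with earlier results of these data known. In each role the 3 genes with the widest ratio of highest to lowest level among those reaching 20 CPM, and Atf4, are given in the most libraries, and per comparison the genes counted. Python 3.11.15, numpy 2.4.6, pandas 2.3.3, scipy 1.17.1 and matplotlib 3.10.9 were used, and the scripts were tested on simulated data. Day 7 was not analysed here. The sequence of 1 promoter window is not reported here.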

Additional observations from a re-analysis of the deposited data

How the results depend on the processing

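Of 147 recomputed counts of genes, 118 stayed within 1.5 times the reported count, as did 139 of 147 medians within their limit. No median changed sign except that of day 10 against day 5, −0.01 as reported, which was 0.09 with TMM scaling, 0.04 with totals lacking ribosomal protein and mitochondrial genes, 0.08 in non-cycling cells and 0.20 without IL-15. The same median was −0.32 without IL-2 and −0.12 without IL-2v. The counts that follow are set against the share of all genes at the same setting. With a pseudocount of 10 CPM, activation gave 3 of 25, against 8.41%. Day 5 against day 3 without cytokine gave 5 of 25, against 7.19%. IL-15 against none gave 1 of 27, against 0.126%, and IL-2v against IL-2 gave 0 of 30, against 0.154%. IL-15 against IL-2 gave 1 of 29, against 0.997%, and the dose of IL-15 gave 0 of 26, against 0.435%. Day 5 against day 3 with cytokine gave 2 of 30, against 0.778%, and the median for the dose of IL-2v was 0.99. Without the filter on low values, activation gave 8 of 34, against 9.01%. In cells lacking Mki67 and Top2a UMIs, activation gave 3 of 23, against 7.86%, and day 5 without cytokine 3 of 22, against 4.99%. There, IL-2v against IL-2 gave 0 of 29, against 0.573%. The count of IL-2v against IL-2 was also 0 with TMM scaling, against 0.621%, and with mean CPM of single cells, against 0.922%. It was 1 without possible doublets, against 1.2%, without day 5, against 0.482%, and without day 10, against 0.437%. With totals lacking ribosomal protein and mitochondrial genes, IL-15 against IL-2 gave 1 of 29, against 1.39%. With these totals IL-2v against IL-15 gave a median of 0.67, as with TMM. Without day 3, IL-2 against none gave 8 of 27 (median 0.64), against 6.65%, and IL-15 against none 5 of 24, against 3.05%. IL-2v against IL-15 gave 11 of 29 (median 1.04) without day 3, against 6.33%. Without day 5, IL-2 against none gave 10 of 29, against 1.69%, and the dose of IL-15 gave 0 of 26, against 1.29%. Without day 10 IL-15 against IL-2 gave 1 of 28, against 1.48%. The medians without day 10 were 0.65 for IL-2v against IL-15 and 0.42 for the dose of IL-15. Day 5 against day 3 gave 8 of 29 without IL-2v, against 4.67%. With 20 CPM required in both arms, chosen after seeing the data, fewer genes are compared. Day 5 against day 3 without cytokine then gave 3 of 18, against 4.3%. IL-2 against none gave 2 of 22, against 0.777%, IL-2v against none 12 of 22, against 4.01%, and IL-15 against none 0 of 22, against 0.257%. IL-2v against IL-2 gave 1 of 28, against 0.669%. The causes of the other changes were not tested.

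Shares of cells depend on depth. Thinned to 1000 UMIs and without thinning, Slc7a5 on day 10 was seen in 0.5% and 3.5% of cells (5 IU/mL IL-2), 20.5% and 60.0% (50 IU/mL IL-2), 5.3% and 24.2% (5 IU/mL IL-2v) and 20.4% and 60.4% (50 IU/mL IL-2v). In the same order of libraries, Ddit3 was seen in 3.6% and 13.0%, 18.4% and 52.0%, 1.7% and 7.4%, and 10.2% and 36.6%. Libraries were matched by day and dose, since the labels give no replicate numbers to pair them by.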
